A study of Rattus norvegicus with 18 samples.

Results

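Long noncoding RNA genes were followed through RNA-seq counts of rat brain, as far as the deposited gene table annotates them. A row was taken when it carried a rat Ensembl gene ID, had the biotype lincRNA, lncRNA, antisense or processed_transcript, and had a mean raw count of 10 or more over the 18 libraries. The rule found 228 genes among 34873 rows. They were 182 of 3023 lincRNA rows, 8 of 23 antisense rows and 38 of 56 processed_transcript rows, and no row had the biotype lncRNA. Of the 3102 Ensembl rows of these biotypes, 1910 had no count in any library. The genes were selected on their mean count, so their levels are a description. Just inside the threshold lay AC118094.1 with a mean count of 10.1 and AABR07059002.1 and AABR07070078.1 with 10.1 each, and just outside lay AABR07016578.2 and AABR07051376.1 with 9.94 each and AABR07030919.1 with 9.89.

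The study compared 3 groups of 6 brain libraries from Rattus norvegicus. NC libraries came from wild-type (WT) rats with no treatment given, CO libraries from WT rats that had inhaled carbon monoxide (CO), and CLCF1 libraries from rats that had inhaled CO and whose genotype is given as a CLCF1 knock-down. CLCF1 is a secreted cytokine that signals through the receptor of ciliary neurotrophic factor. The design text gives the exposure as CO at 1000 ppm for 40 min and then at 3000 ppm for 20 min, with carboxyhemoglobin above 60% as the mark of a successful model. The same text describes lentiviral shRNA against CLCF1 in bone marrow-derived macrophages, depletion of macrophages with liposomes and transfer of such macrophages into depleted rats, so the knock-down may lie in transferred cells and not in the brain. It does not say which of these steps NC and CO rats went through. Strain, sex, age, brain region and whether a library came from 1 rat or from several are not analysed here, since no source names them, and the p-values below measure only the spread between these libraries.

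A long noncoding RNA is a transcript made and spliced much like a messenger RNA but without a translated protein product. LincRNAs lie between protein-coding genes, antisense transcripts lie across a gene on the other strand, and the Ensembl class processed_transcript collects spliced transcripts for which no open reading frame was annotated. Some act in the nucleus on the gene beside them or on chromatin, others in the cytoplasm, and many are made in only some regions or cell types of the brain.

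Promoter windows could be read from RefSeq (build GRCr8, 250 bases before to 50 bases after the gene start) by symbol for 30 of the 228 genes. Shown here are those of 3 genes that changed between groups and that RefSeq lists as protein-coding (Irs4, Arid5b, Dct), of the 1 lincRNA whose window is discussed (LOC102549726), and of 2 coding genes whose lincRNA neighbour changed (Rspo3, Lhx1). Letters run 5′ to 3′ on the strand of the gene, and capitals mark a match to 1 of 4 motifs searched on both strands. The motifs were the core of the cAMP response element (TGACG), an AP-1 site (TGANTCA), the core of the hypoxia response element (ACGTG) and the TATA box (TATAAA).
Irs4, chrX:110148424-110148723, minus strand: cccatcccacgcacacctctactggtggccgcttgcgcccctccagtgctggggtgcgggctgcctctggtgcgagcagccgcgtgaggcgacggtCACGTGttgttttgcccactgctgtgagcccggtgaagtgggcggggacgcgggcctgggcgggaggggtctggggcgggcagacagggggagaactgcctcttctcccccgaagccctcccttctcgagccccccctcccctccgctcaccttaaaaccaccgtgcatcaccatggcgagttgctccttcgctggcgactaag
Arid5b, chr20:20306464-20306763, plus strand: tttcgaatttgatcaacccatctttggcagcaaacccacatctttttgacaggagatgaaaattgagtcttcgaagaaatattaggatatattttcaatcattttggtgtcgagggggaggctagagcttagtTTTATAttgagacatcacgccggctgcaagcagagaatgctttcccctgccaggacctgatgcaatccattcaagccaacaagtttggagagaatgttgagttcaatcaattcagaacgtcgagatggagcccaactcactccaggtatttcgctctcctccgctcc
Dct, chr15:101507980-101508279, minus strand: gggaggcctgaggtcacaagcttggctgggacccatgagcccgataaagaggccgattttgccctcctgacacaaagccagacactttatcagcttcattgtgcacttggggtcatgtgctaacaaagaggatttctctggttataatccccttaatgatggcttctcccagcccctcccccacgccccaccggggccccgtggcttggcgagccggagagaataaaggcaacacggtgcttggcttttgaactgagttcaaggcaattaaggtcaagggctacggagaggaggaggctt
LOC102549726, chr20:3880958-3881257, plus strand: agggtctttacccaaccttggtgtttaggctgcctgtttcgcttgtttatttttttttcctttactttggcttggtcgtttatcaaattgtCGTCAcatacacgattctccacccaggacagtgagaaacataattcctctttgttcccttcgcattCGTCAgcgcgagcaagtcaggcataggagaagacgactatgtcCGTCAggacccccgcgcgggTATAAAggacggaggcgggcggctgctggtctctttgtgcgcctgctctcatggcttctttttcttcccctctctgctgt
Rspo3, chr1:30112279-30112578, plus strand: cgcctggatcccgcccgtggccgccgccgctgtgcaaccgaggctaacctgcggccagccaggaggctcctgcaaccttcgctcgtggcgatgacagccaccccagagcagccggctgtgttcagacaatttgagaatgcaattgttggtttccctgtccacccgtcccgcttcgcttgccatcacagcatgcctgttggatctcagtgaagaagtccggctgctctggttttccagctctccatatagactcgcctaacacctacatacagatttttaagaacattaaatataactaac
Lhx1, chr10:69901027-69901326, minus strand: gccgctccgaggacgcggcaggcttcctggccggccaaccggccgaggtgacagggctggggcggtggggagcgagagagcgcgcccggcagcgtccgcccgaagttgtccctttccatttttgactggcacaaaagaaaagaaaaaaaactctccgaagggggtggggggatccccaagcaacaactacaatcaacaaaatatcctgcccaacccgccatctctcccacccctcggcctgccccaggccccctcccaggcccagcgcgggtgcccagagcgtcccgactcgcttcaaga

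The windows differed in the motifs they hold. Irs4 holds a palindromic CACGTG, which counts as 2 overlapping matches to ACGTG, 1 on each strand. LOC102549726 holds 3 matches to TGACG, all on the other strand, and 1 TATAAA shortly before the start, while Arid5b holds 1 TATAAA on the other strand. The deposited annotation places LOC102549726 on the minus strand, while its RefSeq window, matched by symbol, is on the plus strand. Whether the window belongs to the counted gene was not tested. None of the 4 motifs lies in the windows of Dct, Rspo3 or Lhx1. Of the 30 windows, 9 hold TGACG, 7 hold ACGTG, 2 hold TATAAA and 1 holds TGANTCA. Among all 33365 windows of the RefSeq table the shares are 21.2% for TGACG, 19.3% for ACGTG, 14.2% for TATAAA and 7.34% for TGANTCA. A match describes the letters only.

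The label noncoding held for some of these genes and not for others. RefSeq lists 32 of the 228 as protein-coding, namely 31 of the 38 processed_transcript genes and the lincRNA Dmrtc1b, and lists LOC102549726 and LOC102548225 as noncoding. The other 194 had no RefSeq match by symbol. The table itself gives a Swiss-Prot similarity for 99 genes and a Pfam domain for 60, and 102 have at least 1 of these. Of the 182 lincRNAs, 118 have neither, as have 6 of the 8 antisense genes and 2 of the 38 processed_transcript genes. For 61 lincRNAs the similarity names a protein, and the gene of that protein lies within 1000000 bases on the same chromosome for 20 and is the nearest coding gene for 6. Processed_transcript genes are described below by the coding gene whose symbol they carry.

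Known lncRNAs could hardly be traced by name. Of a list of 81 lncRNA symbols, 2 stood in the table, Snhg11, annotated there as protein-coding, and Miat, at 0 in all libraries. None of the listed symbols was therefore among the 228 genes. Symbols were matched as written, so a gene listed under another symbol, such as Dlx6as, was missed. Position gave more: between the 2 coding genes that flank a gene, RefSeq lists an lncRNA for 126 of the 182 genes whose flanks could be matched in GRCr8, and a named one for 17. AABR07065531.5 lies between Dlk1 and Rtl1, where RefSeq lists Meg3 as the only lncRNA. Rn60_14_0846.1 lies between Smtn and Morc2, where Tug1 is 1 of 2, and Rn60_X_0224.3 between Kdm5c and Tspyl2, where Kantr lies. Whether these rows are those transcripts was not tested.

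Library totals ranged from 15.1 to 20.3 M counts (M, 1000000), and the 228 genes took 0.289% to 0.406% of them, on average 0.33% (NC), 0.36% (CO) and 0.351% (CLCF1). The count of Clcf1 was 1 to 7 in NC, 80 to 118 in CO and 0 to 3 in CLCF1. Libraries 3 to 6 of each group stood apart from libraries 1 and 2. Over all genes there were 42660 cases of a gene with no count in libraries 1 and 2 of a group, and in 0 of them did libraries 3 to 6 hold a count. The 6 libraries of a group may therefore not be independent. Results are given with all 6, and for the counts of passing genes and some named genes also with libraries 1 and 2 alone. SDs, statements on overlap and, where no other set is named, p-values use all 6.

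The median lncRNA-biotype gene had a level of 2.05 CPM (counts per 1000000), a length of 1484 bases and 1.67 CPM per kilobase. Per length, the medians were 1.54 for lincRNAs, 5.95 for antisense genes and 2.70 for processed_transcript genes, while lincRNAs gave 28.8% of all counts of the set. The 10 genes with the highest CPM were 8 processed_transcript genes and 2 lincRNAs. Among the former were Snx3, a sorting nexin of endosomes, with 267 CPM per kilobase, Sv2b, a synaptic vesicle protein, with 61.0, and Adgrb1, an adhesion receptor that can bind dying cells, with 53.4. Syne1, a protein of the nuclear envelope, had the highest CPM with Sv2b, and over its 29464 bases this was 11.0 CPM per kilobase.

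The highest lincRNAs and antisense genes were a separate set of names. Per length AABR07065531.5 led with 101 CPM per kilobase. AABR07070131.1, 478 bases tail to tail from the neural cell adhesion gene Ncam1 and named after its values were seen, had 51.25 CPM per kilobase and passed in no comparison. AABR07017145.1 followed with 50.5 and, among antisense genes, Rn60_1_0436.1 with 50.1 and Rn60_9_0737.3 with 40.9. AABR07017145.1 lies 30996 bases from Fezf2, a transcription factor of cortical projection neurons, and the table gives it a similarity to the secretion protein CAPS1. Its level was 88.4, 94.2 and 102 CPM in NC (lowest, median and highest), 86.8, 104 and 134 in CO and 104, 109 and 120 in CLCF1, and no comparison passed. Fezf2 itself changed by 0.98 in CO against NC (edgeR adjusted p = 0.0235) and by -0.97 in CLCF1 against CO (edgeR adjusted p = 0.0188). AABR07024542.1, 23422 bases from Wnt5a, a secreted signal of development, had 72.9 ± 29.3 CPM in NC, 81.1 ± 26.8 in CO and 101 ± 27.6 in CLCF1 (SD, n = 6), which also did not pass. LOC102549726, whose window is printed above and which overlaps the histocompatibility gene RT1-CE7, had 22.0, 28.1 and 40.3 CPM in NC, 20.7, 26.0 and 29.1 in CO and 15.6, 18.3 and 28.9 in CLCF1. The groups overlapped, and the change of -0.52 between CLCF1 and NC (SE 0.16) missed the threshold (edgeR adjusted p = 0.051). Within a group the coefficient of variation of a gene had a median of 0.332 (NC), 0.362 (CO) and 0.359 (CLCF1).

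**Figure D1:**
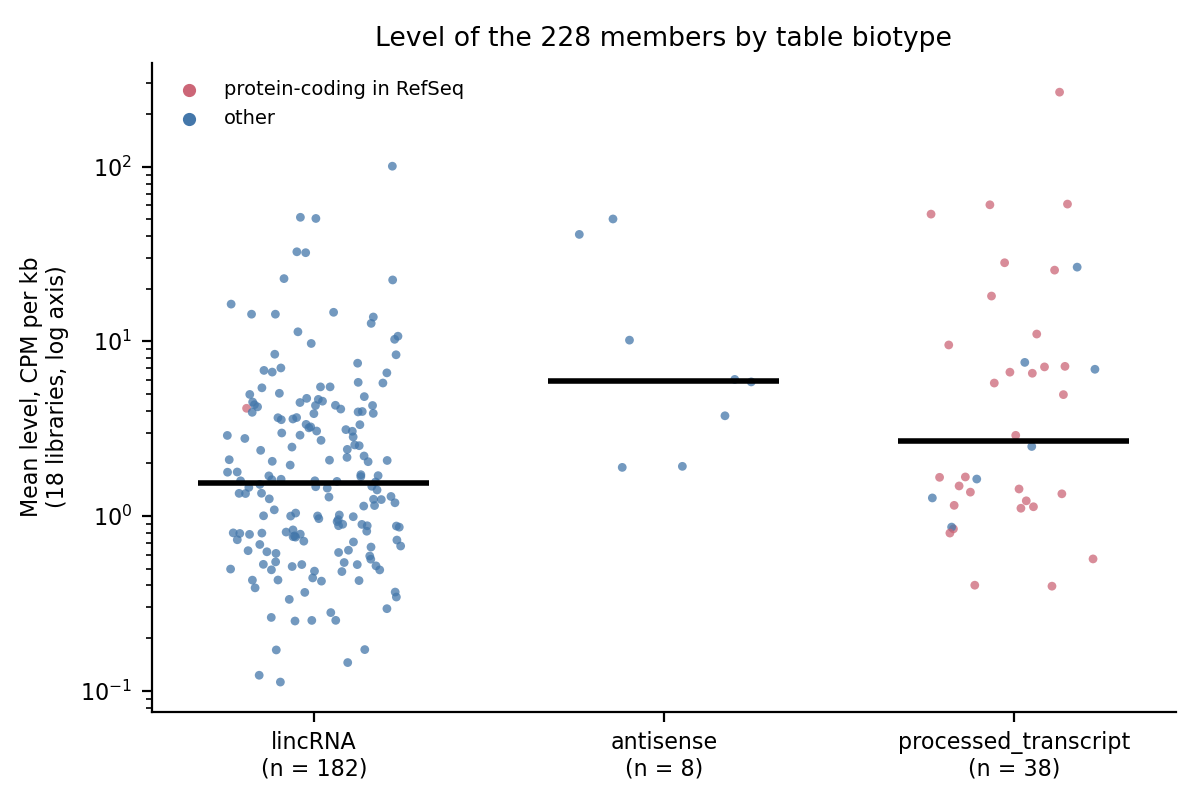
Mean level of each of the 228 genes over the 18 libraries, in CPM per kilobase on a log axis, by the biotype in the table, where each point is a gene and each bar the median. Red points are genes that RefSeq lists as protein-coding, and nearly all of them are processed_transcript genes.

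Each of the 3 comparisons was tested with edgeR over 16581 genes, with Benjamini-Hochberg adjustment over all of them and a threshold of 0.05. Of the 228 genes, 226 entered the test. The low-count filter removed the lincRNAs Rn60_X_0739.1 and AABR07052529.1, both counted almost entirely in CLCF1. AABR07052529.1 had 0 counts in all NC and CO libraries and 1, 72, 26, 153, 34 and 67 in CLCF1 libraries 1 to 6. Rn60_X_0739.1 had 3 counts in CO library 1, 0 in the other NC and CO libraries, and 0, 124, 119, 23, 12 and 79 in CLCF1 libraries 1 to 6. With no filter AABR07052529.1 and Rn60_X_0739.1 were under the threshold in CLCF1 against CO (edgeR adjusted p = 0.00247 and 0.00231, in that order). In CLCF1 against NC they were as well (edgeR adjusted p = 0.00286 and 0.00158). Both genes met the mean-count rule of the set through their CLCF1 counts. Their selection thus leaned on the group that was tested, and no conclusion is drawn from these p-values. Some tested genes named below also met the rule only through a group where they are high. These were Dct, AABR07070078.1 and AABR07006724.1 through CO, AABR07013250.1 and AC096263.1 through NC, and AABR07019442.2 through CLCF1. AABR07059002.1 needed both its NC and its CLCF1 counts. Their p-values against such a group are likewise given as a description, with no conclusion drawn. Between them the comparisons gave 103 calls on 74 genes, and 152 genes passed in none. The comparisons share libraries pairwise, so a gene high only in CO counts in 2 of them. In bulk tissue, fewer cells of a type and less RNA per cell cannot be told apart.

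Carbon monoxide against no treatment changed 31 of 226 lncRNA-biotype genes (edgeR, 13.7%), against 12.7% of all genes tested. Higher in CO were 18 (7.96%, against 6.32% of all genes) and lower 13 (5.75%, against 6.40%). The rises included lincRNAs that were near 0 in NC, such as AABR07000382.1, AABR07007026.1 next to the beta-1 adrenergic receptor gene Adrb1, and AABR07012081.2. The falls included AABR07013250.1 and Tnxb, which encodes the matrix protein tenascin X. Groups did not overlap for 17 genes (7.52%), against 6.35% of all genes tested. The median size of a change regardless of direction was 0.43 on the log2 scale, against 0.27 over all genes, not matched on level. The median change with its sign was 0.02 against 0.01.

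AABR07000382.1 (ENSRNOG00000060990, chr1:11766992-11772215) had 0, 0.0283 and 0.139 CPM in NC, 0.359, 3.54 and 11.7 in CO, and 0.0538, 0.742 and 4.55 in CLCF1. All CO libraries lay above all NC libraries, the NC group held only 5 counts in all, and within CO library 1 was the lowest and library 2 the highest. The rise was 6.37 on the log2 scale (SE 1.04, edgeR adjusted p = 0.00125) and 5.71 in libraries 1 and 2 alone. AABR07007026.1 (chr1:277540445-277574901) had 0.0562, 0.197 and 0.464 CPM in NC against 0.598, 2.47 and 3.78 in CO. The groups did not overlap, and it rose by 3.19 (SE 0.62, edgeR adjusted p = 0.00344), with 1.96 in libraries 1 and 2 alone. Adrb1, 1460 bases away on the same strand, changed by 0.40 and did not pass (edgeR adjusted p = 0.276).

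The other rises were of similar kind. AABR07012081.2 had 0.0562, 0.394 and 1.39 CPM in NC against 1.29, 5.15 and 7.89 in CO, a rise of 3.11 (SE 0.72, edgeR adjusted p = 0.00993) with an overlap at the lowest CO library. The table gives AABR07012081.2 a similarity to the matrix proteoglycan brevican. AABR07025023.1 had 0.113, 0.394 and 0.792 CPM in NC and 1.46, 1.81 and 2.71 in CO, and AC095267.2, on chromosome X, had 0.225, 0.478 and 0.741 in NC and 1.27, 2.06 and 2.39 in CO. Neither overlapped between the groups, and they rose by 2.20 (edgeR adjusted p = 0.00274) and 2.00 (edgeR adjusted p = 0.00179). In libraries 1 and 2 alone the changes were 2.14 for AABR07025023.1 and 1.38 for AC095267.2.

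Dct, which encodes dopachrome tautomerase, an enzyme of melanin synthesis, had 0, 0.151 and 0.842 CPM in NC against 0.193, 1.61 and 6.93 in CO. The groups overlapped, and within CO library 1 had 5.68 and library 2 0.193 CPM. It rose by 3.06 (SE 0.82, edgeR adjusted p = 0.0214), and the call was lost without CO library 5 (edgeR adjusted p = 0.0515). Sv2b rose by 0.76 (edgeR adjusted p = 0.0227), from 230 ± 64 to 388 ± 135 CPM (SD, n = 6), and lost the call without NC library 5 or without CO library 6. Summed neuron markers ran from 3558 to 4046 CPM in NC and from 4599 to 5177 in CO, with 2 of 6 genes higher in edgeR's test. Summed cortex markers ran from 767 to 992 CPM in NC and from 1121 to 1528 in CO, with 2 of 4 higher, and the part of these cells in the rise of Sv2b was not tested. Rn60_1_0436.1, antisense to the mu opioid receptor gene Oprm1 and named after its values were seen, rose by 0.97 (edgeR adjusted p = 0.0298), from 16.6 ± 7.27 to 32.4 ± 12.6 CPM. It lost the call without NC library 1 or without CO library 6. Oprm1 itself had 0.254 ± 0.197 CPM in NC and 0.375 ± 0.209 in CO.

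AABR07013250.1 (ENSRNOG00000053168, chr2:230476320-230479594) fell, with 1.86, 2.54 and 4.72 CPM in NC, 0, 0.225 and 0.718 in CO and 0, 0.0512 and 0.596 in CLCF1. Every NC library lay above every other library. It fell by 3.24 on the log2 scale in CO (SE 0.75, edgeR adjusted p = 0.0097) and by 2.56 in libraries 1 and 2 alone. Tnxb (chr20:4436419-4486680) had 19.1, 26.4 and 29.3 CPM in NC, 4.70, 11.8 and 17.4 in CO and 7.22, 15.2 and 25.6 in CLCF1. NC and CO did not overlap, and Tnxb fell by 1.19 (SE 0.28, edgeR adjusted p = 0.0112), by 0.82 in libraries 1 and 2 alone. It overlaps C4a on the other strand, and as no source gives the strand setting of the counts, reads of the pair cannot be told apart. Of the 5 fibroblast and meninges markers, 4 fell as well, and their summed level was 297 to 464 CPM in NC and 99.2 to 326 in CO. The part of these cells in the fall of Tnxb was not tested.

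AABR07001634.1 had 1.41, 1.73 and 2.32 CPM in NC, 0.252, 0.538 and 1.52 in CO and 1.41, 2.02 and 2.98 in CLCF1. CO was low against both other groups, with an overlap of single libraries against each. It fell by 1.28 in CO (edgeR adjusted p = 0.024) and was higher by 1.53 in CLCF1 than in CO (edgeR adjusted p = 0.00704), with 1.57 in libraries 1 and 2 alone. AABR07052897.2, AABR07008424.1 near the astrocyte glutamate transporter gene Slc1a3, and Vwa3b fell by 1.70, 1.42 and 1.24 (edgeR adjusted p = 0.0298, 0.0394 and 0.0377). These 3 calls depended on single libraries. Leaving out any of 6 libraries ended that of AABR07052897.2 (NC 2 and 5, CO 2, 3, 4 and 6), any of 9 that of AABR07008424.1 (all but NC 1 and 3 and CO 2) and any of 8 that of Vwa3b (all but NC 2, 3 and 6 and CO 4).

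**Figure D2:**
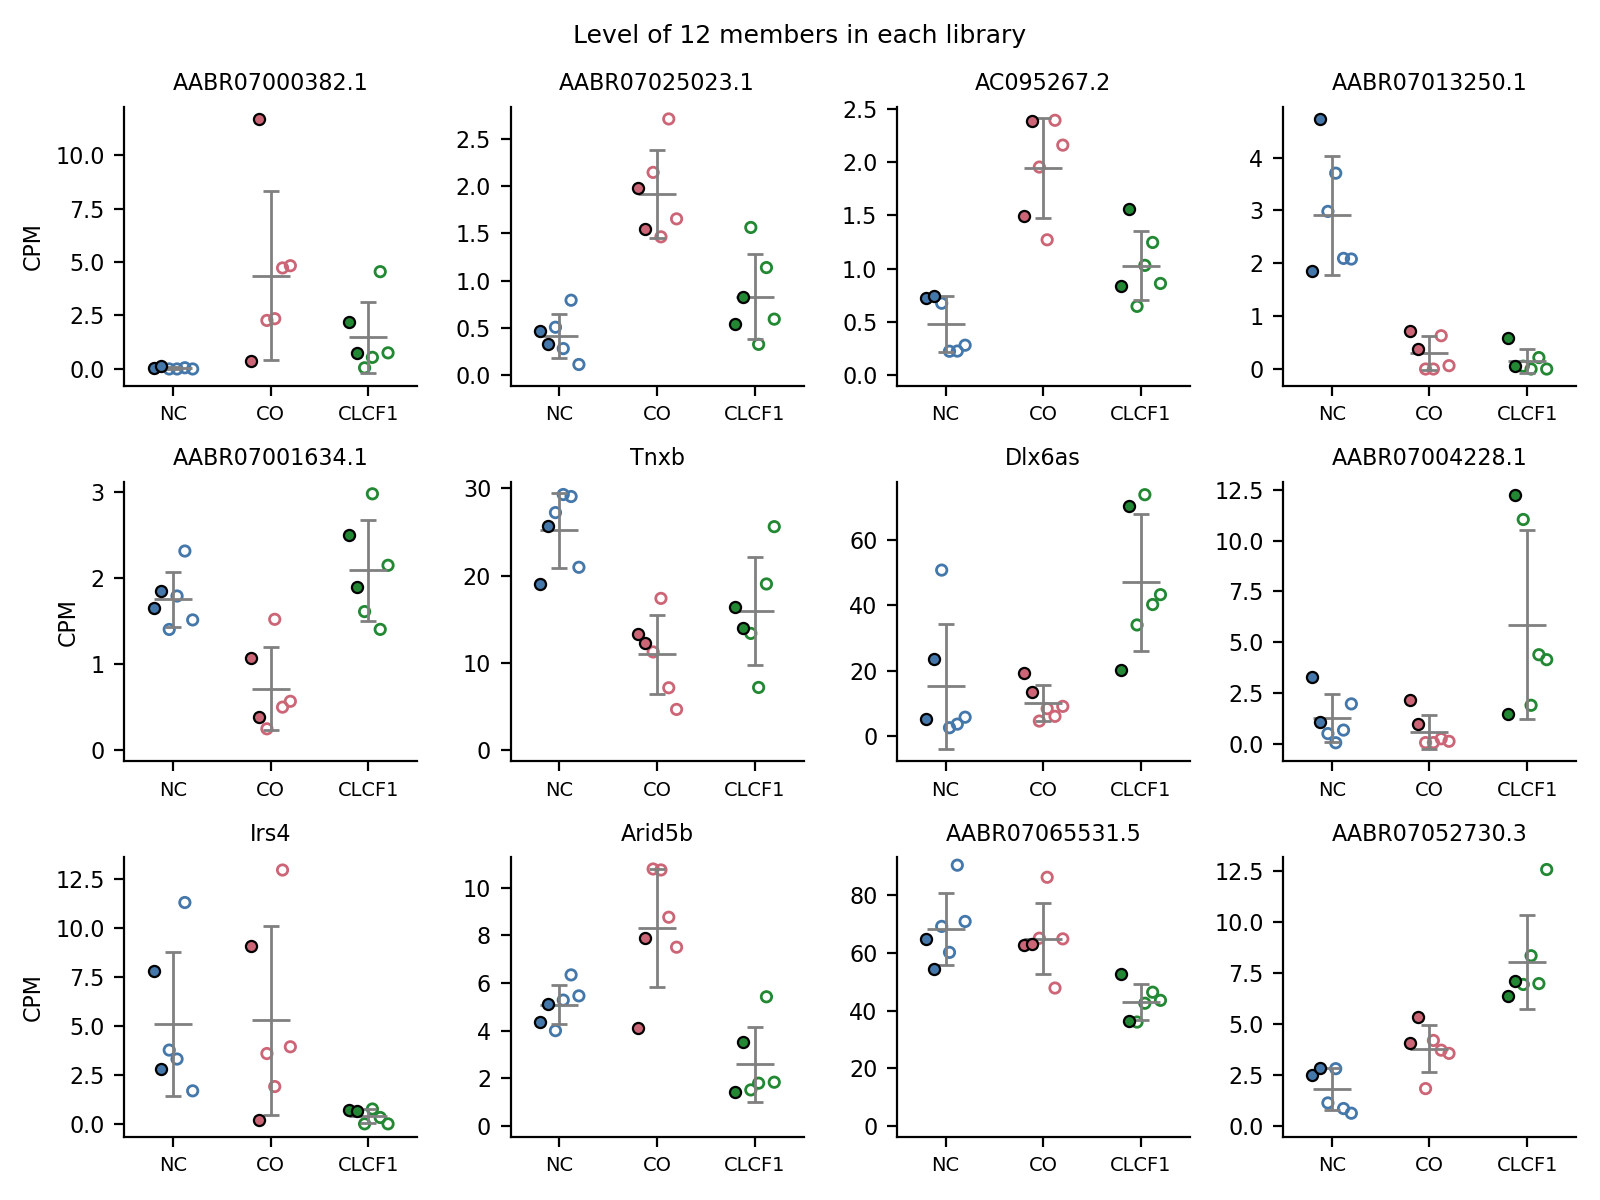
Level in CPM (linear axes) of 12 genes in each library of NC, CO and CLCF1, with filled points for libraries 1 and 2, open points for libraries 3 to 6, and grey bars for the mean and SD of 6 libraries. AABR07000382.1, AABR07025023.1 and AC095267.2 lie higher in CO than in NC, AABR07013250.1 and Tnxb lower, and Irs4 is near 0 in CLCF1, where Dlx6as is higher than in CO.

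The knock-down against CO alone changed 41 of 226 lncRNA-biotype genes (edgeR, 18.1%), against 17.0% of all genes tested, with 19 higher (8.41%, against 8.63%) and 22 lower (9.73%, against 8.34%) in CLCF1. Dlx6as, the antisense transcript of the interneuron gene Dlx6, and AABR07004228.1 next to the transcription factor gene Nr2f2 were among the rises. The falls included Irs4, an adaptor of the insulin receptor, Arid5b, a DNA-binding regulator, and Mlxipl, a glucose-responsive transcription factor. The processed_transcript genes passed 8 times in 38, and all 8 fell, while of 180 lincRNAs tested 18 rose and 13 fell. Groups did not overlap for 13 genes (5.75%), against 7.12% of all genes tested. The median size of a change was 0.51 on the log2 scale, against 0.28 over all genes, again not matched on level.

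Dlx6as (ENSRNOG00000051264, chr4:32333356-32381501) had 2.64, 5.58 and 50.7 CPM in NC, 4.66, 8.80 and 19.4 in CO, and 20.4, 41.7 and 73.7 in CLCF1. All CLCF1 libraries lay above all CO libraries, while 2 NC libraries reached into the CLCF1 range. It rose by 2.20 on the log2 scale against CO (SE 0.61, edgeR adjusted p = 0.0195) and by 1.44 in libraries 1 and 2 alone. Dlx6, on the other strand of the same locus, changed by 0.20 (edgeR adjusted p = 0.773) and had 4.83 ± 2.05 CPM in CO and 5.53 ± 1.15 in CLCF1 (SD, n = 6). Reads of the 2 genes cannot be told apart where they overlap. Dlx1, another transcription factor gene of interneurons, named after its values were seen, had 11.3, 20.5 and 41.4 CPM in CO and 34.1, 53.4 and 163 in CLCF1. The groups overlapped, and it rose by 1.65 (SE 0.49, edgeR adjusted p = 0.0268). Dlx5, a coding gene flanking Dlx6as, did not rise. It changed by -0.26 (edgeR adjusted p = 0.82) and had 18.5 ± 14.6 CPM in CO and 15.5 ± 7.02 in CLCF1. Summed markers of striatum, a region rich in cells that arise from Dlx-expressing progenitors, ran from 1045 to 2446 CPM in CO and from 255 to 1414 in CLCF1. Their part in the difference was not tested.

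AABR07004228.1 (chr1:131380879-131431948) had 0.0561, 0.872 and 3.31 CPM in NC, 0.063, 0.19 and 2.15 in CO, and 1.49, 4.26 and 12.3 in CLCF1. The highest CO library reached into the CLCF1 range. It rose by 3.26 (SE 0.84, edgeR adjusted p = 0.0129), by 2.10 in libraries 1 and 2 alone. AABR07018226.2 rose by 1.68 (edgeR adjusted p = 0.00917), from 0.252 to 0.718 CPM in CO to 0.779 to 2.10 in CLCF1, with no overlap. AABR07052897.2 and AABR07008424.1, which had fallen in CO, were higher in CLCF1 than in CO by 2.27 (edgeR adjusted p = 0.00481) and 1.52 (edgeR adjusted p = 0.0225, and 0.0509 without CLCF1 library 5). CO libraries enter both comparisons with opposite sign, so these are not independent.

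Irs4 (ENSRNOG00000046790, chrX:113002150-113018073) had 1.69, 3.54 and 11.3 CPM in NC, 0.193, 3.77 and 13.0 in CO and 0, 0.503 and 0.76 in CLCF1. Its CLCF1 libraries lay below every NC library and below every CO library but library 2, which had 0.193 CPM against 9.09 in library 1. It fell by 3.65 against CO (SE 0.83, edgeR adjusted p = 0.00641) and by 3.60 against NC (SE 0.83, edgeR adjusted p = 0.0117), and in libraries 1 and 2 alone by 2.73 and 2.94. Irs4 is known from the hypothalamus, and the hypothalamic peptide genes Oxt, Avp, Hcrt and Pmch summed to 0.962 to 3.24 CPM in NC, 0.903 to 253 in CO and 1.12 to 56.9 in CLCF1, with Pmch at 0 in all libraries. The part of sampled region in the fall of Irs4 was not tested.

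Arid5b had 4.00, 5.18 and 6.33 CPM in NC, 4.13, 8.31 and 10.8 in CO and 1.43, 1.81 and 5.42 in CLCF1. All but 1 CLCF1 library lay below all libraries of the other groups. Arid5b fell by 1.68 against CO (SE 0.31, edgeR adjusted p = 0.00216), by 1.29 in libraries 1 and 2 alone, and it overlaps Tmem26 on the other strand. Mlxipl had 1.55, 1.71 and 2.51 CPM in CO and 0.323, 0.799 and 1.18 in CLCF1, without overlap, and fell by 1.34 (edgeR adjusted p = 0.00586). Syne1 fell by 0.56 (edgeR adjusted p = 0.0407), a call that leaving out any of CO 2, 3 and 5 or CLCF1 1, 2, 3 and 4 ended. The lincRNAs AABR07036331.2, Rn60_9_0975.2 near Cops8 and AABR07027243.1 fell by 1.92, 1.33 and 1.80 (edgeR adjusted p = 0.00323, 0.003 and 0.0488). The last of these lost the call when any of 9 libraries was left out (all but CO 4 and 5 and CLCF1 1).

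A pair of genes was lower in CLCF1 than in both other groups and was named after its values were seen. AABR07065531.5, the lincRNA with the highest level per length, had 54.5, 67.0 and 90.4 CPM in NC, 47.8, 64.0 and 86.2 in CO and 36.0, 43.0 and 52.7 in CLCF1. CLCF1 lay below all NC libraries and overlapped CO in 1 library. It fell by 0.60 against CO (SE 0.14, edgeR adjusted p = 0.00823) and by 0.67 against NC (SE 0.14, edgeR adjusted p = 0.00725), and by 0.51 and 0.44 in libraries 1 and 2 alone. Its coding neighbours Rtl1 and Dlk1, imprinted genes, changed by -1.50 and -2.21 against CO and did not pass (edgeR adjusted p = 0.097 and 0.054). AABR07006724.1 had 0.331, 0.521 and 2.98 CPM in NC, 0.889, 1.33 and 1.95 in CO and 0, 0.0538 and 0.146 in CLCF1, where it held 7 counts in all. It overlapped neither group and fell by 4.30 against CO (SE 0.67, edgeR adjusted p = 0.000635).

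The knock-down with CO against no treatment changed 31 of 226 genes (edgeR, 13.7%), against 9.26% of all genes tested and 8.53% of protein-coding genes, with 13 higher (5.75%, against 4.43%) and 18 lower (7.96%, against 4.84%). By class, 27 of 180 lincRNAs, 3 of 8 antisense genes and 1 of 38 processed_transcript genes passed, the last being Irs4. Groups did not overlap for 16 genes (7.08%), against 5.63% of all genes tested. The median size of a change was 0.50 on the log2 scale against 0.25 over all genes, not matched on level. Choroid plexus genes moved in this comparison and in the one before. Their summed level was 4.84 to 171 CPM in NC, 0.819 to 39.7 in CO and 57.6 to 5929 in CLCF1, and 4 of 5 were higher than in NC and 5 of 5 higher than in CO. The part of choroid plexus in the changes of these genes was not tested.

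AABR07052730.3, 4140 bases from the integrin gene Itgav, passed in all 3 comparisons. It had 0.619, 1.82 and 2.82 CPM in NC, 1.83, 3.89 and 5.35 in CO and 6.38, 7.04 and 12.6 in CLCF1. CLCF1 lay above both other groups without overlap, and NC and CO overlapped. It was higher by 2.17 against NC (SE 0.35, edgeR adjusted p = 0.00133), by 1.09 against CO (edgeR adjusted p = 0.033) and by 1.08 between CO and NC (edgeR adjusted p = 0.0492). The last 2 calls were lost when any of 6 libraries (CO 3, 4, 5 and 6, CLCF1 4 and 6) and any of 8 libraries (NC 3, 5 and 6, CO 1, 2, 4, 5 and 6) was left out. Itgav changed by 0.41 against NC (edgeR adjusted p = 0.431).

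AABR07000382.1 was higher by 4.80 in CLCF1 than in NC (edgeR adjusted p = 0.00889), and AABR07013250.1 was lower by a log2 change of -4.24 (edgeR adjusted p = 0.00347). Both had changed in the same direction in CO, against the same NC libraries. Rn60_9_0737.3, an antisense gene to which the table gives a similarity to UNC80, a subunit of a sodium leak channel, had 3.26, 7.91 and 11.6 CPM in NC and 11.8, 18.4 and 24.9 in CLCF1. The groups did not overlap, with CO between them at 6.61 to 19.7 CPM, and it rose by 1.34 (SE 0.29, edgeR adjusted p = 0.0086). AABR07011682.1 rose by 1.24 (edgeR adjusted p = 0.0247), which was lost without any of NC 3, 5 and 6 or CLCF1 2. AABR07019085.1 and AABR07027243.1 fell by 2.37 and 2.07 (edgeR adjusted p = 0.0161 and 0.0395), and the latter was lost without any of 8 libraries (NC 1, 3, 4 and 5, CLCF1 3, 4, 5 and 6).

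**Figure D3:**
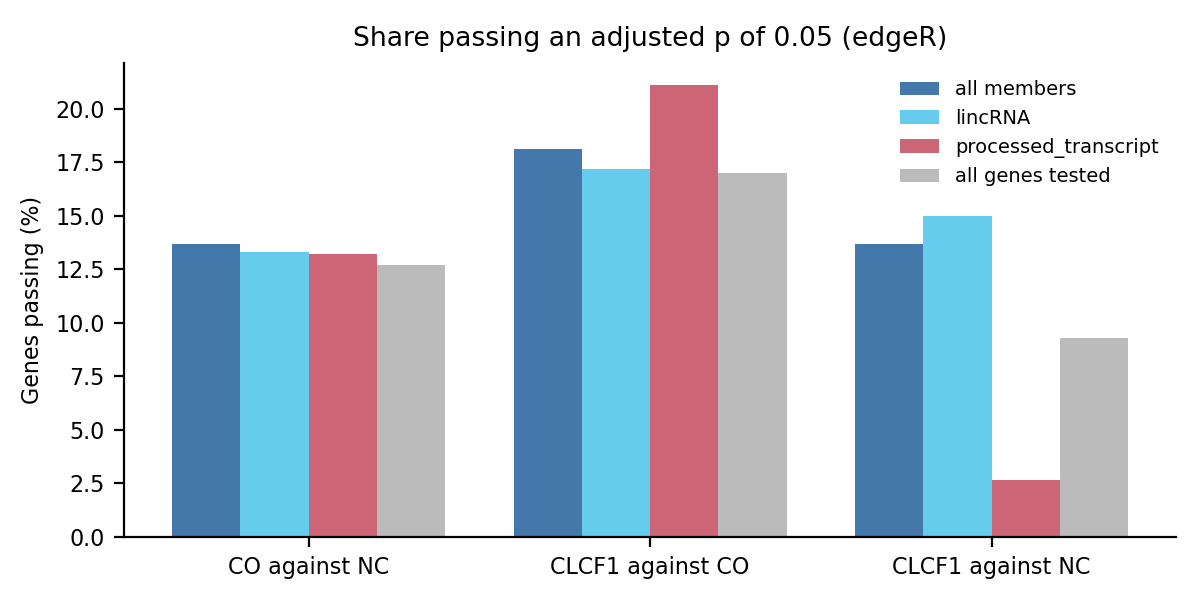
Share of genes passing an edgeR adjusted p of 0.05, in percent from 0, for all 226 lncRNA-biotype genes tested, for the 180 lincRNAs and 38 processed_transcript genes among them, and for all 16581 genes tested. Shares lie close to those of all genes in CO against NC. In CLCF1 against CO processed_transcript genes lie above all genes (21.1% against 17.0%), and the other shares lie close. In CLCF1 against NC lincRNAs lie above all genes, at 9.26%, and processed_transcript genes below them, at 2.63%.

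Passing genes mostly held their direction in the smaller set of libraries but not their call. In libraries 1 and 2 alone, 30 of 31 passing genes had the same sign in CO against NC (1 could not be fitted), 41 of 41 in CLCF1 against CO and 30 of 31 in CLCF1 against NC (1 could not be fitted). Since libraries 1 and 2 are among the 6, this is partly the same data. By edgeR 0 genes passed in these libraries in any of the 3 comparisons, and DESeq2 called 1, 0 and 1. At an unadjusted edgeR p under 0.05 were 8, 4 and 5 of 224 (3.57%, 1.79% and 2.23%). Over all genes fitted the shares were 3.53%, 4.86% and 2.49%. The median size of change of the passing genes was 1.69, 1.34 and 1.34 on the log2 scale in all libraries and 1.50, 1.01 and 1.23 in libraries 1 and 2.

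**Figure D4:**
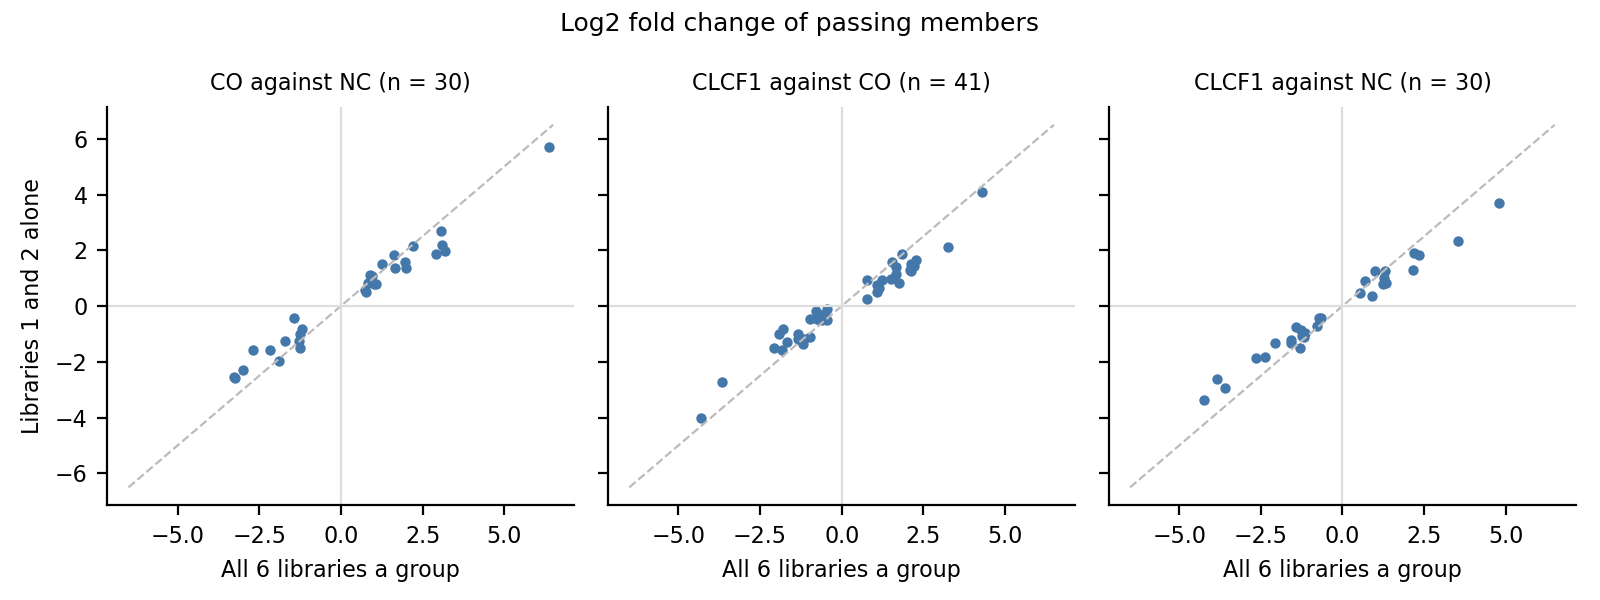
Log2 fold change of each passing gene in libraries 1 and 2 alone (vertical axis) against that in all 6 libraries of a group (horizontal axis), for the 3 comparisons, with a dashed line where both are equal. Points lie in the quadrants of equal sign, and 24 of 30, 34 of 41 and 27 of 30 lie nearer to 0 in libraries 1 and 2 alone.

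The nearest protein-coding gene was found from the coordinates of the table, as the smallest gap between gene bodies. The 2 genes lay on the same strand in 93 cases, head to head in 71, tail to tail in 47, and overlapped on opposite strands in 12 and on the same strand in 5. The gap was at most 5000 bases in 64 cases, above that and up to 50000 in 83, and larger in 64. Chromosome X held 21 of the 228 genes (9.21%), against 3.18% of protein-coding genes with a mean count of 10 or more, and chromosome 20 held 16 (7.02% against 2.80%). On chromosome 20, 11 lay at 1.98 to 5.79 Mb beside genes such as C4a, RT1-CE7, Gabbr1 and Zfp57, in and next to the major histocompatibility complex.

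Few of these neighbours passed together. In CO against NC, both genes passed with the same sign in 4 pairs out of 25 passing genes with a tested neighbour (16%), and with opposite sign in 1. Among protein-coding genes and their nearest protein-coding gene, 102 of 1438 did so (7.09%). In CLCF1 against CO it was 4 of 32 (12.5%, against 11.0%), and in CLCF1 against NC 2 of 25 (8%, against 5.38%). Without overlapping pairs, which may share reads, it was 4 of 22, 3 of 30 and 2 of 21 (18.2%, 10% and 9.52%). The coding pairs include overlapping ones. Irrespective of the test, the signs were equal in 105, 106 and 101 of 179 pairs (58.7%, 59.2% and 56.4%), against 52.5%, 54.2% and 50.7% of coding pairs. Spearman's rho of the 2 log2 fold changes across 179 pairs was 0.25, 0.10 and 0.26, against 0.06, 0.09 and 0.03 for coding pairs. The points are gene pairs of the same libraries and not independent replicates.

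In CO against NC the 4 pairs of equal sign were head to head or tail to tail. AABR07070078.1, 699 bases head to head from the cell adhesion gene Pvrl1 (nectin-1), had 0, 0.0746 and 0.331 CPM in NC and 0.451, 1.05 and 1.70 in CO. The groups did not overlap, and it rose by 2.90 (SE 0.56, edgeR adjusted p = 0.00344) while Pvrl1 rose by 0.72 (edgeR adjusted p = 0.0174), from 48.1 ± 8.65 to 79.5 ± 9.17 CPM. AABR07000978.1, 14928 bases head to head from Rspo3, a secreted enhancer of Wnt signalling, had 0.113, 0.366 and 0.463 CPM in NC and 0.882, 1.21 and 2.10 in CO. It did not overlap either and rose by 1.96 (SE 0.43, edgeR adjusted p = 0.00678), with Rspo3 up by 0.52 (edgeR adjusted p = 0.0387) from 15.2 ± 3.39 to 22.0 ± 4.19 CPM. Dct, 37411 bases tail to tail from the glypican gene Gpc6, rose with it by 3.06 and 1.17 (edgeR adjusted p = 0.0214 and 0.0326), with the dependence on CO library 5 given above. AABR07025023.1 and Gapdh-ps2 lie 305413 bases apart. AABR07070078.1 and Dct met the mean-count rule through their CO counts, so no conclusion is drawn from their pairs.

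The opposite pair was AABR07019442.2 and Rap2a, a small GTPase gene 63170 bases away. The lincRNA had 0.0663, 0.544 and 1.18 CPM in NC, 0, 0 and 0.189 in CO, where it held 5 counts in all, and 0.536, 1.29 and 1.80 in CLCF1. It fell by 3.27 in CO (SE 0.77, edgeR adjusted p = 0.0111) while Rap2a rose by 0.69 (edgeR adjusted p = 0.0351), and against CO it was higher by 4.29 in CLCF1 (SE 0.75, edgeR adjusted p = 0.00135) without overlap. AABR07059002.1, 5030 bases head to head from the morphogen gene Shh and at the count threshold of the set, had 0.566 to 0.862 CPM in NC, 0.0635 to 0.445 in CO and 0.325 to 1.61 in CLCF1. It fell by 1.90 (edgeR adjusted p = 0.0169) and then was higher by 1.85 (edgeR adjusted p = 0.0144), while Shh changed by 0.29 and -0.54 and did not pass (edgeR adjusted p = 0.473 and 0.151). AABR07019442.2 and AABR07059002.1 were named after their values were seen. Both met the mean-count rule through groups where they are high, so no conclusion is drawn from their p-values.

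In CLCF1 against CO the pairs that moved together were more varied. AABR07004228.1, given above, rose with Nr2f2, which went from 2.40 to 22.6 CPM in CO to 15.7 to 47.7 in CLCF1 and rose by 1.53 (edgeR adjusted p = 0.00849). AABR07036331.2 had 1.29, 2.70 and 6.43 CPM in CO and 0.484, 0.702 and 1.61 in CLCF1, with an overlap in 1 library, and fell with LOC687609, 1216 bases away, which fell by 0.62 (edgeR adjusted p = 0.00575). AABR07066529.3, 1382 bases from Fem1a, an adaptor of a ubiquitin ligase, had 3.29, 5.36 and 9.91 CPM in CO and 2.44, 2.62 and 4.38 in CLCF1. It fell by 0.98 (edgeR adjusted p = 0.0312) with Fem1a at -0.79 (edgeR adjusted p = 0.00453), and the lincRNA lost its call without any of CO 1 and 6 or CLCF1 3 to 6. Rn60_20_0041.3, antisense to the imprinting regulator Zfp57, had 0.967 to 1.27 CPM in CO and 0.584 to 0.953 in CLCF1 without overlap. It fell by 0.72 (edgeR adjusted p = 0.0394) with Zfp57 at -0.50 (edgeR adjusted p = 0.0417), and lost the call without any of 10 libraries (all but CO 2 and CLCF1 1). As the 2 genes overlap and the strand setting is unknown, their reads cannot be told apart there. Irs4 and the collagen gene Col4a5, 18465 bases apart, moved in opposite directions, with Col4a5 higher by 1.36 (edgeR adjusted p = 0.0208).

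In CLCF1 against NC the pairs were AABR07036331.2 with LOC687609, and AC096263.1 with Lhx1, a homeodomain gene 845 bases away head to head. AABR07036331.2 fell by 1.41 (edgeR adjusted p = 0.0286), a call lost without any of NC 4 and 6 or CLCF1 4, 5 and 6. AC096263.1 had 0.139, 3.09 and 11.9 CPM in NC, 0, 0 and 0.239 in CO and 0, 0.268 and 0.646 in CLCF1. The NC libraries themselves ran from 0.139 CPM in library 2 to 11.9 in library 1, so the groups overlapped. It fell by 3.85 against NC (SE 0.96, edgeR adjusted p = 0.0171), and libraries 1 and 2 alone could not be fitted for it. Lhx1 had 0.998 ± 0.668 CPM in NC and no count in any CLCF1 library. Markers of monoamine neurons, neurons of the midbrain and brainstem, summed to 16.4 to 244 CPM in NC, 2.77 to 22.4 in CO and 11.6 to 53.1 in CLCF1. Their part in the fall of AC096263.1 was not tested.

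**Figure D5:**
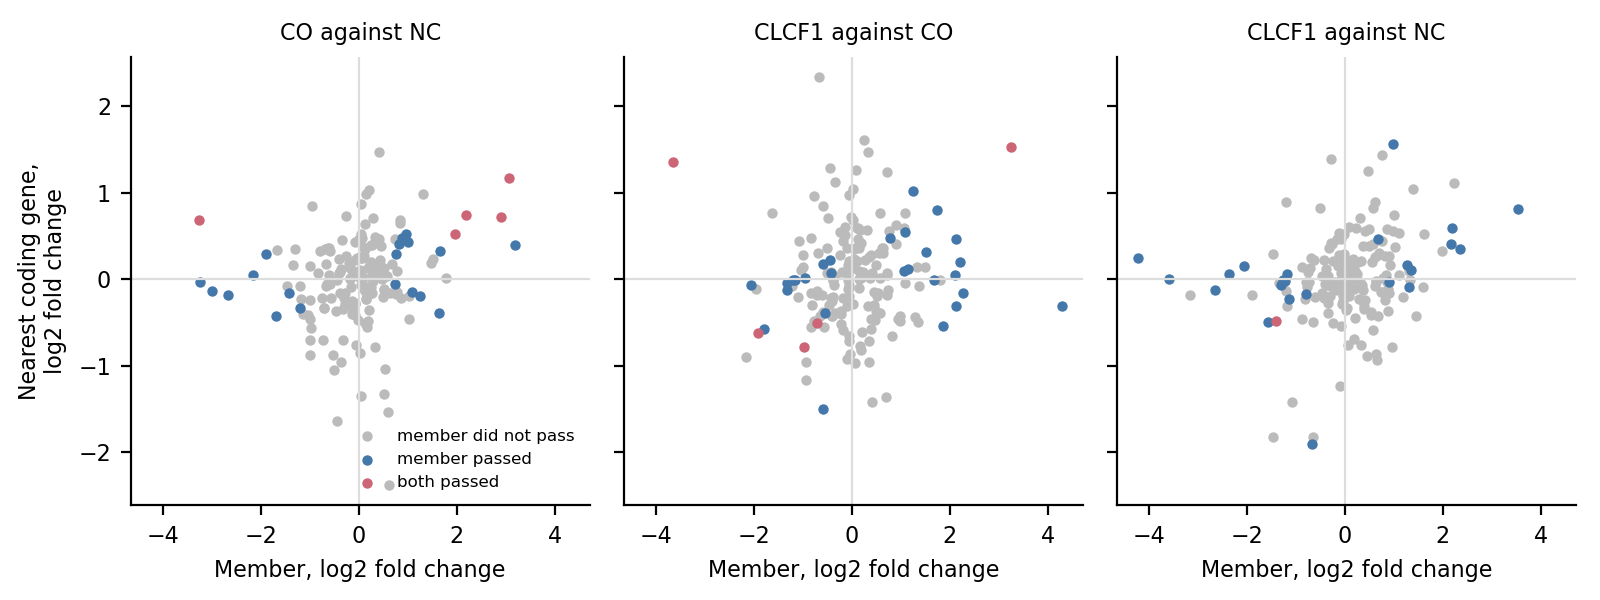
Log2 fold change of the nearest protein-coding gene (vertical axis) against that of the lncRNA-biotype gene (horizontal axis) in the 3 comparisons, with blue points where the latter passed and red points where both passed. Red points are few and most lie in quadrants of equal sign, and Lhx1, with no count in CLCF1, is not drawn.

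Of 18 listed proteins of paraspeckles, nuclear bodies built on an lncRNA, 15 were tested. In edgeR's test 2 of the 15 passed in CO against NC, 3 in CLCF1 against CO and 1 in CLCF1 against NC, where 12.7%, 17.0% and 9.26% of all genes did. In CO against NC Rbm14 rose by 0.62 (edgeR adjusted p = 0.0121) and Ewsr1 fell by 1.36 (edgeR adjusted p = 0.0273). In CLCF1 against CO Rbm14 fell by 0.62 (edgeR adjusted p = 0.00912), Smarca4 fell by 0.51 (edgeR adjusted p = 0.0101) and Rbm12 rose by 1.60 (edgeR adjusted p = 0.0258), and Rbm12 also rose by 2.04 against NC (edgeR adjusted p = 0.0143). Of 10 factors of nonsense-mediated decay, which removes many spliced noncoding transcripts, edgeR called 0 in all 3 comparisons, with 2, 3 and 0 at an unadjusted p under 0.05 and 1, 1 and 0 called by DESeq2. Of 11 components of the nuclear exosome and of Polycomb complexes 10 were tested, and Ezh2, the methyltransferase of Polycomb complex 2, rose by 0.60 in CLCF1 against CO (edgeR adjusted p = 0.0294). The median log2 change of the paraspeckle list was 0.05, 0.13 and 0.00 in the 3 comparisons, that of the nonsense-mediated decay list 0.23, -0.20 and -0.07, and that of the exosome and Polycomb list -0.17, 0.18 and 0.08. Over all genes it was 0.01, 0.00 and 0.01.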

How the data were processed

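The deposited table holds raw counts (whole numbers) of 18 rat brain libraries for each gene, with symbol, coordinates, length, biotype and protein similarities. Per the labels' protocols, libraries were made from total RNA with a SMARTER mRNA-Seq kit. For the aligner, counter, strand setting and build of the table, no entry is given in the sources used here. The submitters' processing notes name GRCm38 and mm10, which are builds of mouse. Coordinates of genes are therefore those of the table, with no build. Sequences are RefSeq's, build GRCr8. Sample titles gave the groups and library numbers, and no column was left unused.

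Counts were fitted with edgeR 4.0.16 in R 4.3.3 (TMM, filterByExpr defaults, robust quasi-likelihood, all 18 libraries in 1 fit, 16581 of 34873 genes tested, Benjamini-Hochberg). CPM are scaled by TMM. Levels per length use the gene length of the table. Alternatives were a block on the library number, DESeq2 1.42.0, limma-voom (limma 3.58.1), other scalings and filters, other sets of libraries, a log2 fold change of 1 and a mean count of 50. The test was checked on simulated data. Replicate libraries differed by a chi-square per degree of freedom of 43.2 to 78.6, above sampling noise.

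Genes named were the 10 with the highest CPM, the largest rises and falls among passing genes with a mean of 1 CPM or more and a stable sign without any 1 library and in libraries 1 and 2 alone (6 each, 4 for CLCF1 against NC), listed lncRNAs, and up to 4 that passed with their nearest coding gene within 50000 bases. The genes, lists and rules were chosen with earlier results of these data known. A gene that the rule selects is not reported here.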

Additional observations from a re-analysis of the deposited data

Results flagged for a closer look

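Among 120 groups of 6 libraries (40 named genes in 3 groups), 10 held 1 library far above the other 5. For normally distributed values chance gives about 6 outliers at either end at the 5% level used (about 1 in 20 groups). CPM of genes with few counts need not be so distributed, so 10 against 6 is not a test. In each group the CPM of that library is given with the next highest. In CLCF1 it was library 1 for AABR07013250.1 (0.596 against 0.217), AABR07027243.1 (3.40 against 0.592) and Rn60_20_0041.3 (0.953 against 0.705). It was library 2 for AABR07036331.2 (1.61 against 0.894), library 4 for AABR07007026.1 (2.71 against 0.834) and library 6 for AABR07052730.3 (12.6 against 8.36). In CO it was library 5 both for AABR07024542.1 (131 against 84.8) and for Trrap (113 against 90.7). In NC it was library 3 both for AABR07018226.2 (2.48 against 1.06) and for Adgrb1 (416 against 269).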

How the results depend on the processing

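The counts of passing genes (31 in CO against NC, 41 in CLCF1 against CO, 31 in CLCF1 against NC) depended on the setting. In CO against NC they were 18 with a stricter filter, 48 by DESeq2, 16 with only the 2 groups compared, 17 in libraries 3 to 6 alone and 7 among genes with a mean count of 50 or more. In CLCF1 against CO they were 26 with a stricter filter and 15 at a mean count of 50. In CLCF1 against NC they were 54 with no filter, 57 by DESeq2, 49 by limma-voom and 10 at a mean count of 50. In libraries 1 and 2 alone edgeR called 0 in each comparison and DESeq2, added after the data were seen, 1, 0 and 1, a setting with fewer samples. Leaving out 1 library gave 25 to 32, 30 to 43 and 23 to 37, and 17 of 31, 24 of 41 and 18 of 31 genes kept the call whichever library was left out. The share of all genes passing under each setting is not given here. These counts therefore describe the settings and are no result about lncRNA-biotype genes. The cause of the other differences was not tested.

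Pairs passing with the nearest gene in the same direction numbered 4, 4 and 2. In CO against NC they were 2 with a stricter filter, 2 with only the 2 groups compared, 2 with the replicate block, 1 in libraries 3 to 6, 0 in libraries 1 and 2 by edgeR and 0 by DESeq2, and 2 to 6 without 1 library. In CLCF1 against CO they were 7 with no filter, 2 in libraries 3 to 6, 0 and 0 in libraries 1 and 2, and 2 to 4 without 1 library. In CLCF1 against NC they were 7 with no filter, 1 with a stricter filter, 8 by DESeq2, 1 with only the 2 groups compared, 0 in libraries 3 to 6, 0 and 0 in libraries 1 and 2, and 0 to 4 without 1 library. With the replicate block 31, 42 and 31 genes passed. Taken over all numbers, libraries of the same number showed little pairing. Their deviations correlated at a median of 0.00158, and 1 of 18 correlations was over 0.1. In 7 of these 18 comparisons between 2 groups the best match was the library of the same number. Among the 7 were 6 of 6 with numbers 1 and 2 (correlations of 0.0317 to 0.194), which is a hint from the data and not from the design. Of 865 values of named genes under alternatives, 701 kept sign and call, 164 kept the sign and lost the call, and 0 reversed. Genes near a mean count of 10 rest on few counts in a group, down to 5 among passing genes.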
